A study of Homo sapiens with 21 samples.

Results

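ATF4 is the transcription factor of the integrated stress response, and 46 genes of its pathway, of 28395 genes in the count table, were followed in Hs578T cells treated with the CDK12 and CDK13 inhibitor THZ531 and with tyrosine kinase inhibitors. The 46 members were selected on their behaviour in these same data: such genes had been seen to rise with lapatinib alone and with nilotinib alone, so their values in those groups are a description and not a finding. All 46 were found, each in 1 row under its NCBI gene identifier, and all 46 passed the filter on low counts that left 16036 genes to test.

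In the integrated stress response, kinases that sense amino acid shortage, unfolded protein in the endoplasmic reticulum, double-stranded RNA or haem shortage phosphorylate the translation factor eIF2. General protein synthesis then slows while the ATF4 message is translated better, and ATF4 protein switches on genes for amino acid synthesis, amino acid uptake, tRNA charging, redox balance and, when stress lasts, cell death. ATF4 is set largely at the level of translation, which counts of messenger RNA do not measure.

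Hs578T cells come from an established line of triple-negative breast cancer and were collected 8 h after treatment. The groups were DMSO, THZ531 at 0.1 µM, lapatinib at 3.16 µM, lapatinib at 3.16 µM with THZ531 at 0.1 µM, nilotinib at 1 µM, nilotinib at 1 µM with THZ531 at 0.1 µM, and THZ531 at 1 µM. The mixtures are called the lapatinib combination and the nilotinib combination here. Each of the 7 groups had 3 libraries from separate samples, 21 in all. Total counts per library ran from 97612207 to 112229052. Of the genes with 1 to 20 counts in a library, 61.6 to 66.4% had an even count. The study says that paired-end reads were aligned and counted, but not whether the ends of a pair were counted separately. These totals and the raw counts given below may therefore be counts of reads, and halved counts were used as an alternative. Values are given as CPM, counts brought to a common library size, after TMM scaling, in the order of replicates 1, 2 and 3. The mesenchymal marker VIM stood at 6657, 6709 and 7168 CPM in DMSO and SPARC at 2703, 2967 and 2810.0. In the same libraries ESR1, the oestrogen receptor, stood at 0.339, 0.397 and 0.357, the epithelial marker CDH1 at 0.169, 0.198 and 0.247, and PGR, CD3E and CDH5 had 0 counts. ERBB2, the HER2 gene and a target of lapatinib, stood at 33.9, 42.0 and 36.7. The summed immune markers, nearly all of it CD68, stood at 104, 124 and 106 in DMSO, 133, 180 and 176 in the lapatinib combination, 129.6, 156 and 154 in the nilotinib combination and 178, 157 and 147 at 1 µM THZ531. The summed mesenchymal markers, 5 of 5 tested and led by VIM, stood at 13158, 14440.0 and 13813 in DMSO, 17991, 19403 and 20008 in the lapatinib combination, 17848.5, 18310.4 and 18995 in the nilotinib combination and 19259, 18733 and 18184.5 at 1 µM THZ531. The summed receptors, 2 of 3 tested and led by ERBB2, stood at 34.3, 42.4 and 37.02 in DMSO, 24.3, 29.2 and 29.96 in the lapatinib combination, 24.1, 27.8 and 31.6 in the nilotinib combination and 31.5, 33.8 and 30.1 at 1 µM THZ531. The part of these markers in the result was not tested.

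Replicate 1 of nilotinib stood apart from the other 2 nilotinib libraries before any comparison was made. It was the highest of the 3 in 45 of the 46 members, against 41.2% of all tested genes. The median member lay 0.75 log2 units above the DMSO mean in that library and 0.17 and 0.18 above it in replicates 2 and 3. For ATF4 the raw counts were 29802 in replicate 1 and 13576 and 13693 in the others. That library enters the shared estimate of the spread in every test given here, so calls that change without it are given with each comparison. A milder case was replicate 2 of THZ531 at 1 µM, which held EIF2AK3 at 10.5 CPM where its companions held 17.7 and 17.7, and CEBPG at 22.5 where they held 34.9 and 32.9. Replicate 1 also held the highest median member in the other groups with a tyrosine kinase inhibitor. It stood at 0.59 against 0.52 and 0.44 in lapatinib, and at 0.32 against 0.24 and 0.30 in the lapatinib combination. In the nilotinib combination it stood at 0.20 against 0.06 and 0.09. In DMSO and with THZ531 alone at either dose replicate 3 was highest. The reason was not tested.

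The values that chose the members were these. The median member lay 0.59, 0.52 and 0.44 log2 units above the DMSO mean in the 3 lapatinib libraries. In 39 of the 46 members all 3 lapatinib libraries lay above all 3 DMSO libraries, where 7.84% of all tested genes did so and 7.83% lay wholly below. With nilotinib 30 members lay wholly above DMSO and 2 wholly below, beside 10.8% and 9.82% of all tested genes. Replicate 1 of nilotinib lay above all DMSO libraries in 41 members, replicate 2 in 30 and replicate 3 in 33. Across all tested genes, the quasi-likelihood test of edgeR (Benjamini-Hochberg) called 0.256% higher and 0.0561% lower with lapatinib, and 0.243% higher and 0.0998% lower with nilotinib. Nothing is read from the members' share of these, since the choice of members used the same contrasts. GDF15, ADM2 and DDIT4 had the largest log2 fold changes with lapatinib, at 2.03, 1.56 and 1.45. At the other end, ALDH18A1 stood at -0.15 with lapatinib and -0.15 with nilotinib, STC2 at -0.10 and -0.07, and EIF2AK4 at -0.05 with lapatinib. With nilotinib EIF2AK3 was the lowest at -0.16, wholly below DMSO, and SLC38A2 stood at -0.14. The log2 fold change was above 0 in 43 members with lapatinib and in 40 with nilotinib, so not every listed gene was higher.

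**Figure D1:**
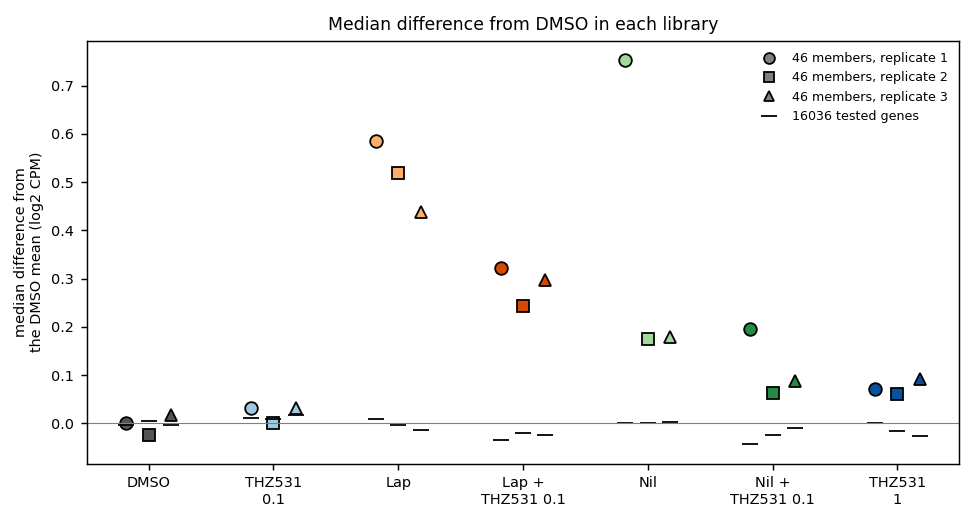
Median over 46 members of the difference from the DMSO mean (log2 CPM) in each of the 21 libraries, one symbol per replicate, with the median over 16036 tested genes as a dash. Lapatinib libraries sit at 0.44 to 0.59, replicate 1 of nilotinib at 0.75, and the lapatinib combination at 0.24 to 0.32.

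The members are known genes of the ATF4 pathway, so a promoter element that ATF4 binds was to be expected among them, and its share is a description. RefSeq promoter windows of GRCh38.p14, running from 250 bases before to 50 bases after a start site, were available for 38 of the 46 members. They were searched on both strands for TGATGNAAN, a form of the composite element that ATF4 and C/EBP proteins bind as a pair. It was present for 13 of the 38 members (34.2%), for 1215 of 27305 genes with a window (4.45%) and for 359 of 12271 tested genes with one (2.93%). For 8 of the 38 members (21.1%) a match lay wholly before the start, and no share over all genes is given for this narrower count. The 13 were ATF3, CEBPG, JDP2, CHAC1, ASNS, SLC3A2, SLC1A4, SLC1A5, SLC7A1, AARS1, GARS1, MARS1 and NARS1, and ATF4 itself had none. A match to these letters is a description of the sequence and not a mapped binding site, and windows were missing for NUPR1, EIF4EBP1, PSPH, SHMT2, ALDH1L2, GPT2, PYCR1 and SLC7A11. Stretches of 5 promoters of members described in detail are printed here 5' to 3' on the gene's strand, with the match in capitals. They lie at chr1:212565157-212565333 (plus strand, ATF3), chr19:33373896-33374112 (plus strand, CEBPG), chr15:40953251-40953279 (plus strand, CHAC1), chr7:97872458-97872486 (minus strand, ASNS) and chr7:30594834-30594862 (plus strand, GARS1). The ATF3 stretch lies upstream of the gene and that of CEBPG in an intron of a longer transcript. The others are short because their match lies in an annotated untranslated region. In CHAC1 and GARS1 the capitals are the reverse complement of the searched letters. The first base of the match lay 191 bases before the start in ATF3, 42 in CEBPG, 210 in CHAC1, 68 in ASNS and 34 in GARS1.
ATF3: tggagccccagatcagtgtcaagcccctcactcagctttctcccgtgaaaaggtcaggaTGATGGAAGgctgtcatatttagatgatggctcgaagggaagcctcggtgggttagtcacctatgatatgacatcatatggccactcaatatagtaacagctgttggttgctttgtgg
CEBPG: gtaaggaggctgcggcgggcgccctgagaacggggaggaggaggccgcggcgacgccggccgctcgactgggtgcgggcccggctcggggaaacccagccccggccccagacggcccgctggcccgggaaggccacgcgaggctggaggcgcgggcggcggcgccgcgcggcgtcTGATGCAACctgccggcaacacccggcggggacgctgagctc
CHAC1: ctcccctgccGTTGCATCActcctgccag
ASNS: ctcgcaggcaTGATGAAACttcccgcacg
GARS1: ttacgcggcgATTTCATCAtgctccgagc

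Of the 4 treatments tested against DMSO, the lapatinib combination had the most members called higher. It raised 24 of the 46 (34.3% of all tested genes were called higher) and lowered 10 (37.8% of all tested genes), which became 13 and 16 with library size alone and 5 and 24 with scaling on the mRNAs of the 13 mitochondrial protein genes (mitochondrial scaling). With these scalings 20.9% of all tested genes were called higher and 48.4% lower, and 5.30% and 58.4%. A call is an adjusted p under 0.05 in the quasi-likelihood test of edgeR, adjusted by Benjamini-Hochberg over all 16036 genes. The members' shares, 52.2% higher and 21.7% lower, lay on either side of the background, and their median log2 fold change was 0.27 against -0.01 over all tested genes. With the nilotinib combination 17 members rose (33.7% of all tested genes) and 11 fell (37.3%), or 7 and 17 with library size alone and 1 and 26 with mitochondrial scaling, and the median was 0.08 against -0.01. With THZ531 at 1 µM 15 rose (33.1%) and 14 fell (36.8%), or 6 and 19 and 1 and 25 with the same scalings, and the median was 0.07 against -0.01. Of all tested genes 20.5% were then higher and 47.1% lower, and 4.83% and 55.9%, in the nilotinib combination, and 21% and 45.6%, and 4.35% and 52.5%, at 1 µM THZ531. The share of members called higher was thus close to the background in the latter 2 comparisons, at 37.0% and 32.6%. All these comparisons share the DMSO libraries with each other and with the choice of members.

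How many members counted as higher depended on the scaling, which sets where no change lies. Library size alone shifted the median of all genes by -0.33 in the lapatinib combination, -0.30 in the nilotinib combination and -0.26 at 1 µM THZ531, and mitochondrial scaling by -0.68, -0.62 and -0.54. The median member stayed above the median gene by 0.28 in the lapatinib combination, 0.10 in the nilotinib combination and 0.08 at 1 µM THZ531 under either scaling. In bulk RNA, fewer cells and less RNA per cell cannot be told apart, and the mitochondrial share of counts was itself 1.19, 1.35 and 1.20% in the DMSO libraries, 1.49, 1.56 and 1.76% in the lapatinib combination, 1.45, 1.55 and 1.68% in the nilotinib combination and 1.78, 1.46 and 1.36% at 1 µM THZ531. All changes that follow are relative to TMM scaling unless another is named.

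**Figure D2:**
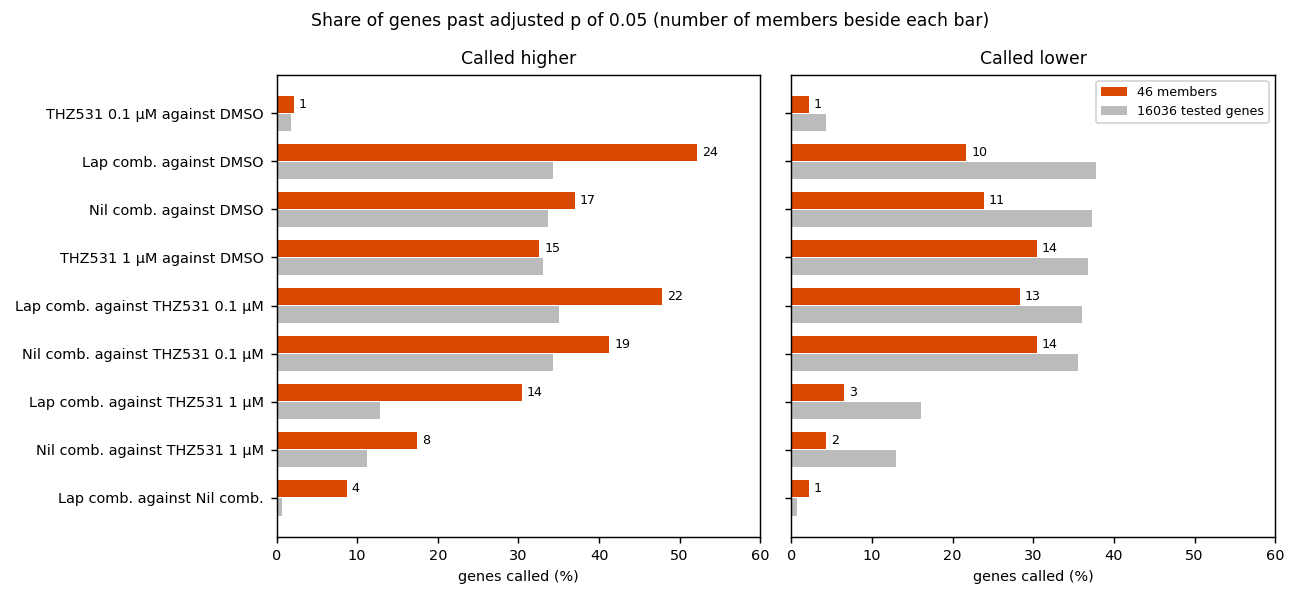
Percent of 46 members and of 16036 tested genes called higher or lower in 9 comparisons, with the number of members beside each bar. For the lapatinib combination against DMSO the members stand at 52.2% higher beside 34.3% of all genes (24 members, or 5 with mitochondrial scaling beside 5.30% of all genes), and against THZ531 at 1 µM at 30.4% beside 12.8%.

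At 0.1 µM, THZ531 alone gave few calls, and their number depended on the fit. The transcription factor ATF3 rose (1 member higher, 1.78% of all tested genes) and ULBP1, a ligand that natural killer cells recognise, fell (1 member lower, 4.31% of all tested genes). ATF3 stood at 3.86, 4.18 and 3.74 CPM in DMSO and 5.79, 5.78 and 5.54 at 0.1 µM, and ULBP1 at 4.11, 3.80 and 3.81 and 2.17, 2.51 and 2.92. Neither pair of groups overlapped. The log2 fold change was 0.54 ± 0.15 (SE) for ATF3 (edgeR quasi-likelihood test, Benjamini-Hochberg adjusted p = 0.0373) and -0.63 ± 0.18 for ULBP1 (adjusted p = 0.0389). Both calls were weak: leaving out any 1 of the 6 libraries compared ended the ATF3 call, with log2 fold changes of 0.51 to 0.58. That of ULBP1 ended without any 1 of the DMSO libraries, replicate 1 or 2 at 0.1 µM, or replicate 3 of lapatinib, with -0.65 to -0.53. Without replicate 1 of nilotinib 2 members were called higher (1.49% of all tested genes in that fit) and 1 lower (4.35%), the addition being CTH, the enzyme that makes cysteine from cystathionine (0.40, adjusted p = 0.0384). A fit of only these 2 groups called 4 members higher (3.41% of all tested genes) and 2 lower (6.97%). CEBPG (0.25, adjusted p = 0.0447), CTH (0.40, adjusted p = 0.0145) and SLC1A5 (0.18, adjusted p = 0.0327) were added as higher and PSPH (-0.32, adjusted p = 0.0212) as lower. With the replicate number as a block ULBP1 was not called (-0.63, adjusted p = 0.0501), while CTH (0.41, adjusted p = 0.0451) and PSPH (-0.31, adjusted p = 0.0487) were. Under mitochondrial scaling neither ATF3 nor ULBP1 passed (ATF3 0.54, edgeR Benjamini-Hochberg adjusted p = 0.067, ULBP1 -0.63, edgeR Benjamini-Hochberg adjusted p = 0.0521).

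The 7 transcription factors of the pathway held calls in both directions, as tested genes in general did. With the lapatinib combination 5 rose and 2 fell, beside 34.3% and 37.8% of all tested genes (3 and 2 with mitochondrial scaling, beside 5.30% and 58.4%). With the nilotinib combination 3 rose and 2 fell, beside 33.7% and 37.3% (1 and 3, beside 4.83% and 55.9%). With THZ531 at 1 µM 2 rose and 3 fell, close to the 33.1% and 36.8% of all tested genes (1 and 5, beside 4.35% and 52.5%). ATF4 stood at 78.1, 86.0 and 80.3 CPM in DMSO, 67.4, 74.5 and 76.7 with THZ531 at 0.1 µM and 79.3, 71.4 and 73.8 at 1 µM. With the inhibitors it stood at 175, 173 and 146 in lapatinib, 261, 115 and 118 in nilotinib, 173, 189 and 192 in the lapatinib combination and 121, 122 and 127 in the nilotinib combination. Every library that received a tyrosine kinase inhibitor lay above every library that did not. ATF4 rose by 1.18 ± 0.20 (SE, log2, n = 3 libraries a group) in the lapatinib combination (edgeR quasi-likelihood test, Benjamini-Hochberg adjusted p = 2.25e-05), a 2.27-fold increase. Its rise of 0.60 ± 0.20 in the nilotinib combination (adjusted p = 0.0104, same test in edgeR with Benjamini-Hochberg adjustment) became 0.30, edgeR Benjamini-Hochberg adjusted p = 0.184 with library size alone and turned to -0.02, edgeR Benjamini-Hochberg adjusted p = 0.929 with mitochondrial scaling. At 1 µM THZ531 the value was -0.12 ± 0.20 and did not pass (edgeR quasi-likelihood test, Benjamini-Hochberg adjusted p = 0.593).

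ATF3, a stress-induced factor and target of ATF4, behaved differently. It stood at 6.002, 4.58 and 4.68 CPM in lapatinib and 6.69, 4.11 and 4.18 in nilotinib. These lay 0.61, 0.22 and 0.25 log2 units above the DMSO mean with lapatinib and 0.77, 0.07 and 0.09 with nilotinib. ATF3 stood at 23.5, 28.1 and 25.0 in the lapatinib combination. In the nilotinib combination it reached 15.9, 17.3 and 16.5 and at 1 µM THZ531 15.1, 16.7 and 13.2. All 9 libraries of these last 3 groups lay above the other 12, and those of the nilotinib combination and of 1 µM THZ531 overlapped each other. The log2 fold changes against DMSO were 2.70 ± 0.15, 2.07 ± 0.15 and 1.93 ± 0.15 (edgeR quasi-likelihood test, Benjamini-Hochberg adjusted p = 4.47e-12, 2.13e-10 and 7.88e-10), the largest rise among the members in each of the 3 comparisons.

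DDIT3, the cell death factor CHOP, went the other way. In DMSO it stood at 8.05, 7.24 and 6.34 CPM, in lapatinib at 15.1, 14.1 and 11.2 and in nilotinib at 20.01, 9.40 and 8.82. With THZ531 added it stood at 2.60, 3.68 and 3.61 in the lapatinib combination and 2.79, 2.12 and 1.89 in the nilotinib combination, and 1 µM THZ531 gave 2.41, 1.42 and 2.33. The libraries of these 3 groups were all below every DMSO library, while every library of either inhibitor alone was above every DMSO library. DDIT3 changed by -1.13 ± 0.26, -1.67 ± 0.26 and -1.81 ± 0.27 against DMSO (edgeR quasi-likelihood test, Benjamini-Hochberg adjusted p = 0.000581, 1.18e-05 and 5.1e-06). A limit applies to its counts, as the libraries carry no strand. In the GENCODE annotation 27.2% of its exon bases lie over exons of MARS1 on the opposite strand.

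CEBPG and CEBPB code for C/EBP proteins that pair with ATF4. CEBPG stood at 36.03, 31.4 and 33.9 CPM in DMSO, 81.6, 84.6 and 80.3 in the lapatinib combination, 63.8, 67.0 and 72.3 in the nilotinib combination and 34.9, 22.5 and 32.9 at 1 µM THZ531. Both combinations lay wholly above DMSO, with 1 µM THZ531 overlapping it. The rise was 1.28 ± 0.20 with lapatinib and THZ531 and 1.00 ± 0.20 with nilotinib and THZ531 (edgeR quasi-likelihood test, Benjamini-Hochberg adjusted p = 8.09e-06 and 0.000135), the latter no longer past the threshold with mitochondrial scaling (0.38, edgeR Benjamini-Hochberg adjusted p = 0.0598). CEBPB stood at 36.5, 40.2 and 38.8 in DMSO, 56.6, 71.7 and 70.3 in the lapatinib combination, 39.0, 44.1 and 47.1 in the nilotinib combination and 32.2, 20.2 and 34.7 at 1 µM THZ531. It was higher in all 3 libraries of the lapatinib combination and lower in all 3 of 1 µM THZ531, with the nilotinib combination overlapping DMSO. The log2 fold changes were 0.78 ± 0.16, 0.17 ± 0.16 (not called) and -0.41 ± 0.16 (edgeR quasi-likelihood test, Benjamini-Hochberg adjusted p = 0.00018, 0.335 and 0.0277). The fall at 1 µM lost its call without replicate 2 of that group (-0.20, adjusted p = 0.187), without DMSO replicate 2 (-0.38, adjusted p = 0.073) or without DMSO replicate 3 (-0.40, adjusted p = 0.0577), and the rise lost its call with mitochondrial scaling (0.10, edgeR Benjamini-Hochberg adjusted p = 0.617). A fit of only the groups compared did not call the fall either (-0.38, edgeR Benjamini-Hochberg adjusted p = 0.0735). Of the others, JDP2, a repressor of the same family, fell with -0.72, -0.63 and -1.12, and the stress protein NUPR1 stood at 0.98, 0.49 and 0.74, of which the first and last were called. In the nilotinib combination NUPR1 was called without replicate 1 of nilotinib (0.49, adjusted p = 0.0125), as it was in 4 other fits with 1 library left out. These 2 were picked after their values were seen.

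**Figure D3:**
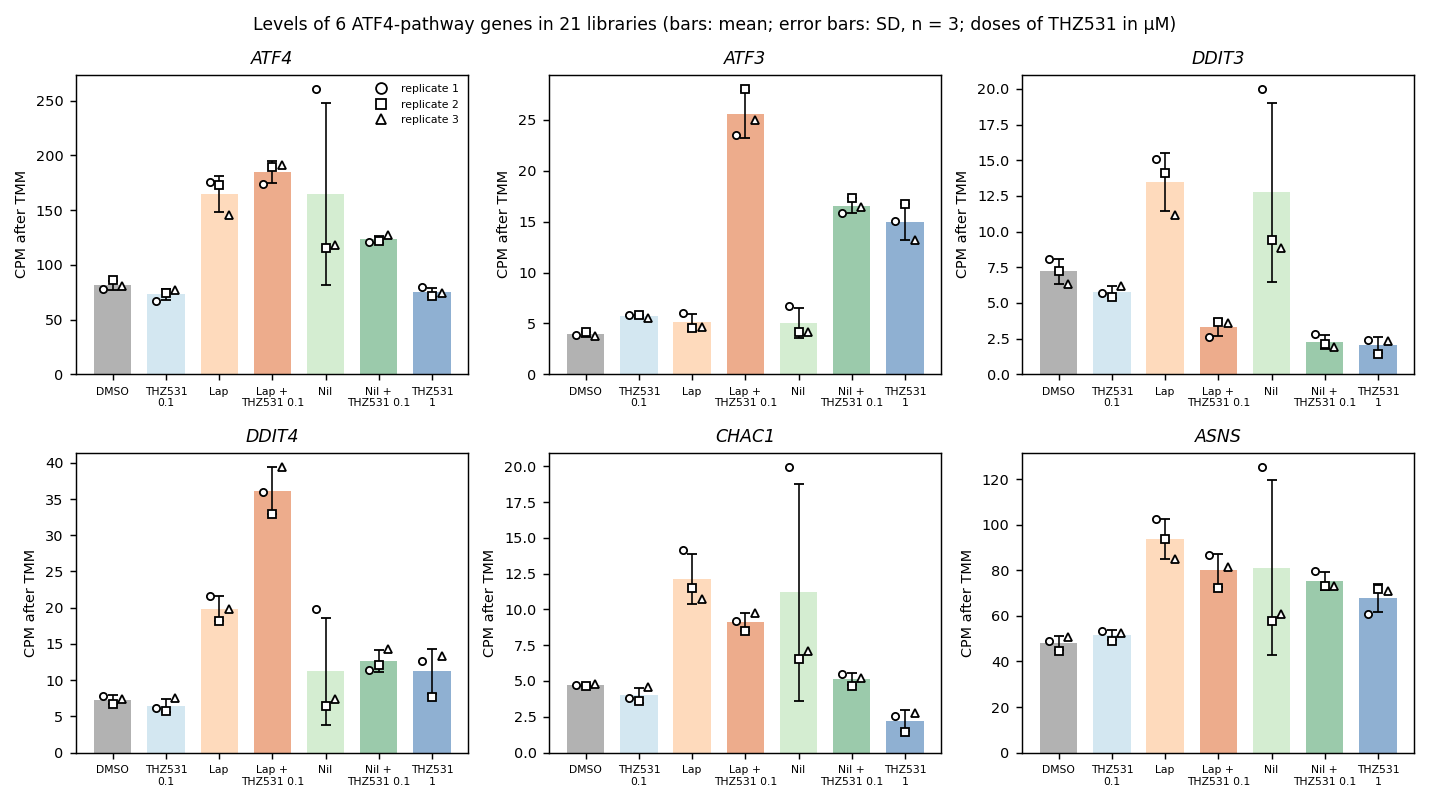
CPM after TMM of ATF4, ATF3, DDIT3, DDIT4, CHAC1 and ASNS in the 7 groups (bars, mean; error bars, SD, n = 3; symbols, replicates 1 to 3). ATF4 stands at 115 to 261 CPM wherever a tyrosine kinase inhibitor was given and at 67.4 to 86.0 elsewhere, and DDIT3 at 1.42 to 3.68 in the combinations and at 1 µM THZ531.

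The kinases that start the response and the feedback genes that end it are 4 members, too few to read a share from. With the lapatinib combination 1 of them rose and 2 fell, beside 34.3% and 37.8% of all tested genes (3 fell with mitochondrial scaling, beside 58.4%). The counts were the same with the nilotinib combination under both scalings, beside 33.7% and 37.3% (55.9% lower), and at 1 µM THZ531 3 fell, beside 36.8% (4, beside 52.5%). EIF2AK3 is PERK, the eIF2 kinase of the endoplasmic reticulum. It stood at 17.6, 15.6 and 16.7 CPM in DMSO, 22.8, 31.5 and 28.8 in the lapatinib combination, 19.5, 25.2 and 26.0 in the nilotinib combination and 17.7, 10.5 and 17.7 at 1 µM THZ531. Both combinations lay above DMSO in every library, and of the 1 µM THZ531 libraries 2 stood just above the highest DMSO library and replicate 2 below the lowest. The rise was 0.73 ± 0.15 and 0.50 ± 0.15 (edgeR quasi-likelihood test, Benjamini-Hochberg adjusted p = 0.000244 and 0.00643), but with mitochondrial scaling 0.04, edgeR Benjamini-Hochberg adjusted p = 0.844 and, turned, -0.13, edgeR Benjamini-Hochberg adjusted p = 0.505, and with library size alone the latter was 0.20, edgeR Benjamini-Hochberg adjusted p = 0.266.

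EIF2AK4, which codes for GCN2, the kinase that senses uncharged tRNA, fell instead. Its CPM were 77.9, 73.9 and 73.7 in DMSO, 47.0, 42.8 and 43.7 in the lapatinib combination, 57.7, 52.1 and 54.7 in the nilotinib combination and 61.3, 63.6 and 57.1 at 1 µM THZ531. The lapatinib combination held the lowest libraries, and no library of the 3 groups reached DMSO. The changes were -0.76 ± 0.06, -0.45 ± 0.06 and -0.31 ± 0.06 (edgeR quasi-likelihood test, Benjamini-Hochberg adjusted p = 1.59e-09, 2.24e-06 and 0.00021). PPP1R15A, or GADD34, brings the phosphatase that resets eIF2, and its CPM were 114, 135 and 114 in DMSO, 43.8, 60.6 and 56.4 in the lapatinib combination, 35.8, 45.7 and 44.8 in the nilotinib combination and 48.8, 40.6 and 45.7 at 1 µM THZ531. Every treated library was far below DMSO and the 3 treated groups overlapped one another. It changed by -1.18 ± 0.12, -1.53 ± 0.12 and -1.43 ± 0.12 (edgeR quasi-likelihood test, Benjamini-Hochberg adjusted p = 2.51e-08, 6.55e-10 and 2.15e-09). TRIB3, the pseudokinase that restrains ATF4, was called lower at 1 µM THZ531 (-1.19) and stood at -0.64 and -0.61 in the combinations without a call. It was called lower in both without replicate 1 of nilotinib (-0.63, adjusted p = 0.00106, and -0.60, adjusted p = 0.00166) and without replicate 2 or 3 of nilotinib. In the lapatinib combination it was also called without replicate 2 (-0.64, adjusted p = 0.041) or 3 (-0.64, adjusted p = 0.048) of 1 µM THZ531.

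Of the 8 stress effectors and secreted factors 4 rose and 2 fell with the lapatinib combination, beside 34.3% and 37.8% of all tested genes (2 and 3 with mitochondrial scaling, beside 5.30% and 58.4%). With the nilotinib combination 2 rose and 2 fell, beside 33.7% and 37.3% (4 fell, beside 55.9%), and at 1 µM THZ531 1 rose and 4 fell, beside 33.1% and 36.8% (5 fell, beside 52.5%). DDIT4, or REDD1, restrains the growth kinase mTORC1. Its CPM were 7.83, 6.65 and 7.37 in DMSO, 21.6, 18.2 and 19.8 in lapatinib, 19.8, 6.48 and 7.38 in nilotinib and 36.03, 32.9 and 39.4 in the lapatinib combination. The nilotinib combination gave 11.4, 12.1 and 14.3 and 1 µM THZ531 12.6, 7.66 and 13.3. The lapatinib combination lay above every library of the other 6 groups, and 1 µM THZ531 overlapped DMSO through its replicate 2. DDIT4 rose by 2.31 ± 0.29 in the lapatinib combination, 4.96-fold, and by 0.79 ± 0.29 in the nilotinib combination (edgeR quasi-likelihood test, Benjamini-Hochberg adjusted p = 6.7e-07 and 0.019). The second of these calls ended without DMSO replicate 2 (0.73, adjusted p = 0.06) or without replicate 3 of that combination (0.69, adjusted p = 0.0636), with library size alone (0.49, edgeR Benjamini-Hochberg adjusted p = 0.137) and with mitochondrial scaling (0.16, edgeR Benjamini-Hochberg adjusted p = 0.571).

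CHAC1, an enzyme that breaks down glutathione, moved in opposite directions in 2 of the treatments. It stood at 4.73, 4.63 and 4.77 CPM in DMSO, 9.19, 8.47 and 9.72 in the lapatinib combination, 5.47, 4.68 and 5.22 in the nilotinib combination and 2.54, 1.42 and 2.74 at 1 µM THZ531. The first combination was wholly above DMSO and 1 µM THZ531 wholly below it, while the nilotinib combination overlapped it. Its log2 fold changes stood at 0.95 ± 0.30, 0.12 ± 0.30 (not called) and -1.08 ± 0.31 (edgeR quasi-likelihood test, Benjamini-Hochberg adjusted p = 0.00714, 0.73 and 0.00456), and the rise was not called with library size alone (0.62, edgeR Benjamini-Hochberg adjusted p = 0.0652) or with mitochondrial scaling (0.26, edgeR Benjamini-Hochberg adjusted p = 0.329). ULBP1 fell in all 3 treatments: from the DMSO values given above it dropped to 0.765, 1.16 and 0.991, 0.810, 0.940 and 0.825 and 1.44, 1.57 and 1.18 CPM in the lapatinib combination, the nilotinib combination and 1 µM THZ531. No library of these groups came near DMSO, and either inhibitor alone had stood above it, at 6.57, 7.87 and 7.81 and 8.37, 4.88 and 5.43. The changes were -2.01 ± 0.19, -2.18 ± 0.19 and -1.48 ± 0.18 (edgeR quasi-likelihood test, Benjamini-Hochberg adjusted p = 1.12e-08, 4.06e-09 and 5.8e-07).

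GDF15, a secreted stress hormone, was barely expressed. Its CPM were 0.218, 0.414 and 0.408 in DMSO, 0.765, 1.87 and 0.590 in the lapatinib combination, 0.367, 0.324 and 0.374 in the nilotinib combination and 0.451, 0.346 and 0.396 at 1 µM THZ531. Replicate 2 carried most of the difference in the lapatinib combination. The rise of 1.63 ± 0.53 (edgeR quasi-likelihood test, Benjamini-Hochberg adjusted p = 0.00977) was not called without that library (0.97, adjusted p = 0.123), and the nilotinib combination and 1 µM THZ531 stood at 0.04 ± 0.57 and 0.20 ± 0.56. ADM2, a peptide hormone, stood at 0.895, 0.958 and 0.944 CPM in DMSO, 0.896, 1.12 and 0.846 in the lapatinib combination, 0.540, 0.702 and 0.583 in the nilotinib combination and 0.220, 0.304 and 0.406 at 1 µM THZ531. It was lower in every library of 1 µM THZ531 (-1.59 ± 0.30, edgeR quasi-likelihood test, Benjamini-Hochberg adjusted p = 0.00011), lower in every library of the nilotinib combination but not called (-0.61 ± 0.28, adjusted p = 0.0584 in the same edgeR test), and overlapped DMSO in the lapatinib combination. In the nilotinib combination it was called lower without replicate 1 (-0.61, adjusted p = 0.0122) or 3 (-0.61, adjusted p = 0.0421) of nilotinib or replicate 3 of 0.1 µM THZ531 (-0.61, adjusted p = 0.0495). The remaining called members were STC2, a secreted glycoprotein, at -1.24, -1.45 and -1.04, and EIF4EBP1, the brake on cap-dependent translation, at 0.59, 0.53 and 0.48.

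Enzymes of amino acid and one-carbon metabolism rose more often than they fell in all 3 treatments under TMM scaling. With the lapatinib combination 7 of the 12 rose and 1 fell, beside 34.3% and 37.8% of all tested genes (6 fell with mitochondrial scaling, beside 58.4%). With the nilotinib combination 6 rose and 1 fell, beside 33.7% and 37.3% (5 fell, beside 55.9%), and at 1 µM THZ531 7 rose and 1 fell, beside 33.1% and 36.8% (3 fell, beside 52.5%). PHGDH, which opens the serine pathway, stood at 112.03, 115 and 121 CPM in DMSO, 227, 198 and 224 in the lapatinib combination, 206, 189 and 189 in the nilotinib combination and 169.7, 202 and 205 at 1 µM THZ531. All 9 treated libraries lay above DMSO, and the 3 treated groups overlapped. The rises were 0.90 ± 0.10, 0.75 ± 0.10 and 0.73 ± 0.10 (edgeR quasi-likelihood test, Benjamini-Hochberg adjusted p = 5.87e-08, 8.58e-07 and 1.28e-06). With mitochondrial scaling they were 0.22, 0.13 and 0.20, none past the threshold (adjusted p in edgeR with Benjamini-Hochberg adjustment 0.191, 0.467 and 0.248).

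ASNS, asparagine synthetase, is a classic ATF4 target. Its CPM were 48.9, 44.6 and 50.8 in DMSO, 103, 94.0 and 85.1 in lapatinib, 86.6, 72.4 and 81.4 in the lapatinib combination, 79.9, 73.1 and 73.1 in the nilotinib combination and 60.9, 71.9 and 70.8 at 1 µM THZ531. All treated libraries were above DMSO, and the combinations were above 1 µM THZ531 in each library. It rose by 0.74 ± 0.19, 0.65 ± 0.19 and 0.50 ± 0.19 (edgeR quasi-likelihood test, Benjamini-Hochberg adjusted p = 0.00179, 0.00493 and 0.0254), but with library size alone the values were 0.41, 0.35 and 0.24 and with mitochondrial scaling 0.05, 0.03 and -0.04, none of them called. The rise at 1 µM THZ531 was also lost without DMSO replicate 1 (0.51, adjusted p = 0.0505) or 2 (0.44, adjusted p = 0.0813) and without replicate 2 (0.45, adjusted p = 0.0681) or 3 (0.47, adjusted p = 0.0649) of that group. In addition, 49.3% of the exon bases of ASNS, over all its transcripts in the GENCODE annotation, lie under a long noncoding RNA on the same strand. GPT2, which interconverts alanine and glutamate in mitochondria, was the exception that fell. It stood at 16.3, 16.9 and 17.7 CPM in DMSO, 9.67, 8.97 and 9.39 in the lapatinib combination, 9.19, 8.61 and 8.53 in the nilotinib combination and 8.88, 11.01 and 10.3 at 1 µM THZ531. No treated library reached DMSO, although lapatinib alone had stood at 27.7, 26.6 and 23.2. The changes were -0.86 ± 0.16, -0.95 ± 0.16 and -0.76 ± 0.15 (edgeR quasi-likelihood test, Benjamini-Hochberg adjusted p = 5.15e-05, 1.76e-05 and 0.00022). PSAT1, SHMT2, ALDH1L2 and PYCR1 were called higher in all 3 treatments with log2 fold changes of 0.21 to 0.64, while PCK2, ALDH18A1 and CTH were called in none of the 3. In the lapatinib combination ALDH1L2 lost its call without DMSO replicate 2 (0.19, adjusted p = 0.107) or 3 (0.19, adjusted p = 0.118) and without replicate 1 (0.21, adjusted p = 0.0704) or 3 (0.18, adjusted p = 0.123) of the combination, and CTH was called without that replicate 3 (0.37, adjusted p = 0.0247). PSAT1 lost its call without DMSO replicate 2 in the nilotinib combination (0.51, adjusted p = 0.0529) and at 1 µM THZ531 (0.49, adjusted p = 0.0652), and there also without replicate 2 of the group (0.51, adjusted p = 0.0513).

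**Figure D4:**
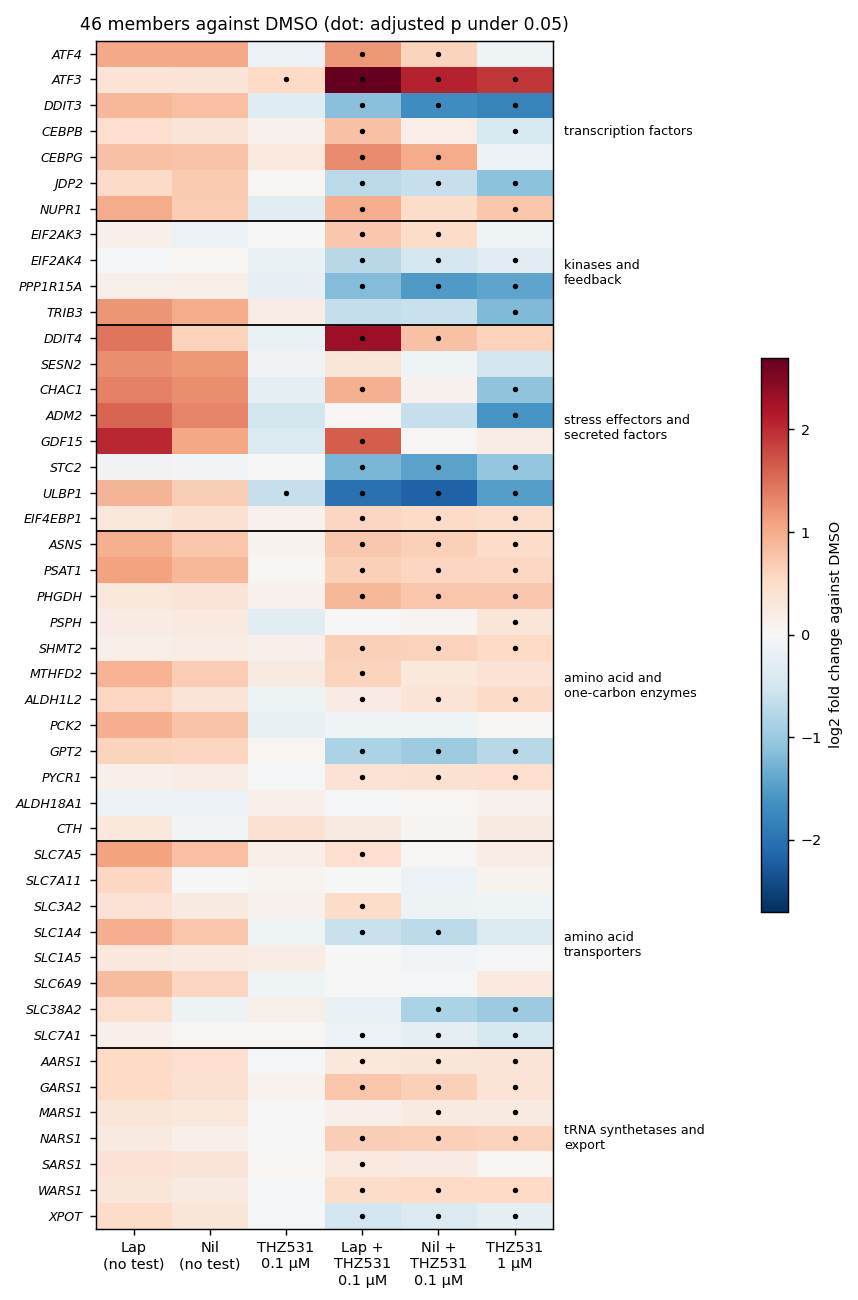
Log2 fold change against DMSO of 46 members (rows, by role) in 6 treatments; dots mark an adjusted p under 0.05, and lapatinib and nilotinib alone carry no test. ATF3 reaches 2.70 in the lapatinib combination and ULBP1 -2.18 in the nilotinib combination, and the enzymes hold 7, 6 and 7 rises of 12 in the combinations and 1 µM THZ531, none of them called with mitochondrial scaling.

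Of the 8 amino acid transporters 2 rose and 2 fell with the lapatinib combination, beside 34.3% and 37.8% of all tested genes (6 fell with mitochondrial scaling, beside 58.4%). The fall of SLC7A1 there lost its call in 4 of the 21 fits with 1 library left out. These were the fits without DMSO replicate 1 or 2 or without replicate 1 or 3 of the combination, at -0.15 to -0.12 (edgeR Benjamini-Hochberg adjusted p = 0.0604 to 0.123). With the nilotinib combination 3 fell, beside 37.3% (8, beside 55.9%), and at 1 µM THZ531 2 fell, beside 36.8% (6, beside 52.5%), with no rise in either beside 33.7% and 33.1%. SLC3A2 and SLC7A5 form the heavy and light chains of a carrier of large neutral amino acids. SLC3A2 stood at 90.8, 99.5 and 97.3 CPM in DMSO, 128, 137 and 142 in the lapatinib combination, 89.0, 87.9 and 84.9 in the nilotinib combination and 91.1, 82.4 and 91.6 at 1 µM THZ531. It was above DMSO in all 3 libraries of the first and below it in all 3 of the second. Against DMSO the values were 0.50 ± 0.13 and, without a call, -0.14 ± 0.12 and -0.12 ± 0.12 (edgeR quasi-likelihood test, Benjamini-Hochberg adjusted p = 0.0013, 0.339 and 0.415), and the rise became 0.18, edgeR Benjamini-Hochberg adjusted p = 0.212 with library size alone and turned to -0.18, edgeR Benjamini-Hochberg adjusted p = 0.263 with mitochondrial scaling.

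SLC7A5 stood at 95.3, 101 and 95.0 CPM in DMSO, 215, 216 and 187 in lapatinib, 121, 139 and 139 in the lapatinib combination, 93.8, 102 and 102 in the nilotinib combination and 111, 111.9 and 113 at 1 µM THZ531. The lapatinib combination lay above DMSO but below lapatinib alone in every library. Its rise of 0.45 ± 0.20 passed narrowly (edgeR quasi-likelihood test, Benjamini-Hochberg adjusted p = 0.0448) and was past the threshold in 6 of the 21 fits with 1 library left out, those without any 1 of the nilotinib libraries, replicate 1 of either combination or replicate 2 of 1 µM THZ531. It became 0.13, edgeR Benjamini-Hochberg adjusted p = 0.582 with library size alone and turned to -0.23, edgeR Benjamini-Hochberg adjusted p = 0.228 with mitochondrial scaling. SLC1A4, a carrier of alanine, serine and cysteine, stood at 27.6, 27.0 and 29.2 CPM in DMSO, 62.4, 54.8 and 47.9 in lapatinib, 19.1, 17.1 and 19.04 in the lapatinib combination, 19.001, 16.2 and 16.2 in the nilotinib combination and 19.3, 23.6 and 20.9 at 1 µM THZ531. All libraries with THZ531 named here were below DMSO, and all lapatinib libraries above it. The log2 values of SLC1A4 were -0.60 ± 0.20, -0.70 ± 0.20 and -0.39 ± 0.20 (edgeR quasi-likelihood test, Benjamini-Hochberg adjusted p = 0.0123, 0.0044 and 0.0914), the last without a call except where replicate 1 of nilotinib was left out (-0.39, adjusted p = 0.00153).

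Of the 7 genes of tRNA charging and export 5 rose and 1, the exporter, fell in each of the 3 treatments under TMM scaling, beside 34.3%, 33.7% and 33.1% of all tested genes higher and 37.8%, 37.3% and 36.8% lower. With mitochondrial scaling no rise was called and 4, 3 and 2 fell, beside 58.4%, 55.9% and 52.5%, and with library size alone 2, 3 and 2 rose and 1 fell in each, beside 20.9%, 20.5% and 21% higher. Some of the rises depended on single libraries. In the lapatinib combination AARS1 and SARS1, alanyl- and seryl-tRNA synthetase, both lost their calls without any 1 of the DMSO libraries or without replicate 1 of the combination, which left 3 of the 7, at 0.25 to 0.30 for AARS1 and 0.21 to 0.28 for SARS1. AARS1 also lost its call without replicate 3 of that combination (0.27, adjusted p = 0.0788) and, in the nilotinib combination, without replicate 1 of it (0.28, adjusted p = 0.0612). MARS1, methionyl-tRNA synthetase, lost its call in 3 of the 21 fits with 1 library left out in the nilotinib combination and in 4 at 1 µM THZ531, at 0.16 to 0.25. GARS1, glycyl-tRNA synthetase, stood at 459, 441 and 459 CPM in DMSO, 752, 753 and 775 in the lapatinib combination, 719, 695 and 700.0 in the nilotinib combination and 566, 571 and 608 at 1 µM THZ531. These groups did not overlap: the lapatinib combination was highest, then the nilotinib combination, then 1 µM THZ531, and DMSO lowest. It rose by 0.75 ± 0.10, 0.64 ± 0.10 and 0.36 ± 0.10 (edgeR quasi-likelihood test, Benjamini-Hochberg adjusted p = 1.59e-06, 1.26e-05 and 0.00361). With mitochondrial scaling these were 0.06, 0.02 and, turned, -0.18, and with library size alone the last was 0.10, none of them called. NARS1, asparaginyl-tRNA synthetase, stood at 63.6, 58.2 and 61.1 CPM in DMSO, 101, 90.2 and 96.4 in the lapatinib combination, 99.7, 91.9 and 92.6 in the nilotinib combination and 91.5, 95.1 and 93.9 at 1 µM THZ531. The treated groups overlapped one another and all lay above DMSO. The rises were 0.66 ± 0.07, 0.64 ± 0.07 and 0.62 ± 0.07 (edgeR quasi-likelihood test, Benjamini-Hochberg adjusted p = 8.82e-08, 1.45e-07 and 2.5e-07), which with mitochondrial scaling became, uncalled, -0.03, 0.01 and 0.07, the first one turned.

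XPOT, the exportin that carries tRNA out of the nucleus, stood at 212, 185 and 203 CPM in DMSO, 300.2, 277 and 270.4 in lapatinib, 154, 132 and 132 in the lapatinib combination, 159, 145 and 156 in the nilotinib combination and 163, 176 and 159 at 1 µM THZ531. Lapatinib alone lay above DMSO and the 3 other groups below it, without overlap. XPOT changed by -0.52 ± 0.10, -0.38 ± 0.10 and -0.27 ± 0.10 (edgeR quasi-likelihood test, Benjamini-Hochberg adjusted p = 9.27e-05, 0.00197 and 0.0206). The fall at 1 µM THZ531 was not called without DMSO replicate 1 (-0.23, adjusted p = 0.0819) or 3 (-0.26, adjusted p = 0.0516), nor without replicate 1 (-0.26, adjusted p = 0.0536) or 3 (-0.24, adjusted p = 0.07) of its own group.

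Leaving out replicate 1 of nilotinib gave 24 members higher and 11 lower in the lapatinib combination against DMSO (34.0% and 37.3% of all tested genes in that fit), 20 and 13 in the nilotinib combination (33.4% and 36.8%) and 19 and 16 at 1 µM THZ531 (32.7% and 36.3%). Besides the members named above, it added calls in the nilotinib combination for MTHFD2, a mitochondrial folate enzyme (0.29, adjusted p = 0.0194), and SARS1 (0.22, adjusted p = 0.00734). At 1 µM THZ531 it added DDIT4 (0.62, adjusted p = 0.0017), SESN2, a leucine sensor upstream of mTORC1 (-0.49, adjusted p = 0.023), and MTHFD2 (0.39, adjusted p = 0.00291). Also added there were SLC7A5 (0.21, adjusted p = 0.00992) and the glycine carrier SLC6A9 (0.26, adjusted p = 0.0135), all by edgeR with Benjamini-Hochberg adjustment. DDIT4 at 1 µM THZ531 was also called without replicate 2 or 3 of nilotinib or replicate 2 of its own group (0.83, adjusted p = 0.0187).

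Each combination was also set against THZ531 at 1 µM. Neither group compared chose the members, but the libraries that did enter the shared estimate of the spread, and so the SE and p. Fits of only the groups compared, given below, hold none of them. The groups differ both in the tyrosine kinase inhibitor and in the THZ531 dose, 0.1 µM against 1 µM, and the parts of these in a difference cannot be told apart. In the lapatinib combination 14 of the 46 members were higher (12.8% of all tested genes), 3 lower (16.1%) and 29 not called. The median over members was 0.19 against -0.02 over all tested genes. Higher and lower were 12 and 6 with library size alone and 12 and 5 with mitochondrial scaling. With these scalings 10.1% of all tested genes were higher and 21% lower, and 5.96% and 16.0%. The 14 members higher with TMM were 5 of the 7 transcription factors (4 with either scaling), 4 of the 8 effectors, 3 of the 8 transporters, 1 of the 4 kinases and feedback genes and 1 of the 7 tRNA genes. With the nilotinib combination 8 were higher (11.2% of all tested genes) and 2 lower (13.0%), with a median of 0.00 against -0.03, and 4 of the 8 were transcription factors (4 with library size alone, 3 with mitochondrial scaling). The nilotinib counts were 7 and 3 with library size alone (9.53% and 15.8% of all tested genes) and 6 and 2 with mitochondrial scaling (5.36% and 9.68%), which moved the all-gene medians here by -0.14 for lapatinib and -0.08 for nilotinib.

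CHAC1 showed the largest of the called differences with either inhibitor. With nilotinib its lead over CEBPG was narrow, at 1.20 against 1.17. Without replicate 2 of 1 µM THZ531 CHAC1 was not called with nilotinib (0.96, edgeR Benjamini-Hochberg adjusted p = 0.0525). It was 2.03 ± 0.31 higher in the lapatinib combination than at 1 µM THZ531, 4.08-fold, and 1.20 ± 0.31 higher in the nilotinib combination (edgeR quasi-likelihood test, Benjamini-Hochberg adjusted p = 5.95e-05 and 0.00761), all libraries of either combination lying above. ATF4 was higher by 1.30 ± 0.20 and 0.72 ± 0.20, again in 3 of 3 libraries of each (edgeR quasi-likelihood test, Benjamini-Hochberg adjusted p = 5.23e-05 and 0.0101). CEBPG followed with 1.45 ± 0.20 and 1.17 ± 0.20 (edgeR quasi-likelihood test, Benjamini-Hochberg adjusted p = 1.81e-05 and 0.000184), and CEBPB with 1.19 ± 0.16 and 0.58 ± 0.16 (edgeR quasi-likelihood test, Benjamini-Hochberg adjusted p = 1.39e-05 and 0.0102). ADM2 was 1.62 ± 0.31 and 0.97 ± 0.32 higher (edgeR quasi-likelihood test, Benjamini-Hochberg adjusted p = 0.000457 and 0.0295), and PERK's gene EIF2AK3 0.86 ± 0.15 and 0.62 ± 0.15 (edgeR quasi-likelihood test, Benjamini-Hochberg adjusted p = 0.000267 and 0.00488). With halved counts the ADM2 difference with nilotinib was not called (0.98, edgeR Benjamini-Hochberg adjusted p = 0.0561). DDIT4 was higher in the lapatinib combination by 1.69 ± 0.29 (edgeR quasi-likelihood test, Benjamini-Hochberg adjusted p = 0.000158) and stood at 0.17 ± 0.28 in the nilotinib combination, whose libraries overlapped those of 1 µM THZ531. ATF3, SLC38A2, SESN2 and SLC3A2 were called higher with lapatinib as well, at 0.77, 0.80, 0.83 and 0.62, whereas DDIT3 at 0.68 and GDF15 at 1.43 were not called. Of the enzymes and tRNA genes called higher against DMSO in all of these groups, GARS1 was called higher again with lapatinib (0.39 ± 0.10, edgeR quasi-likelihood test, Benjamini-Hochberg adjusted p = 0.00633), though not with mitochondrial scaling (0.24, edgeR Benjamini-Hochberg adjusted p = 0.208), and stood at 0.28 ± 0.10 with nilotinib without a call. ALDH1L2 was called lower with lapatinib. The rest were not called with either inhibitor, among them PHGDH at 0.17 and 0.02, ASNS at 0.24 and 0.15 and NARS1 at 0.04 and 0.02. Called lower with lapatinib were EIF2AK4 (-0.45), PSPH (-0.35), the last enzyme of the serine pathway, and ALDH1L2 (-0.30), a mitochondrial folate enzyme. With nilotinib ULBP1 (-0.70) and STC2 (-0.40) were lower.

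**Figure D5:**
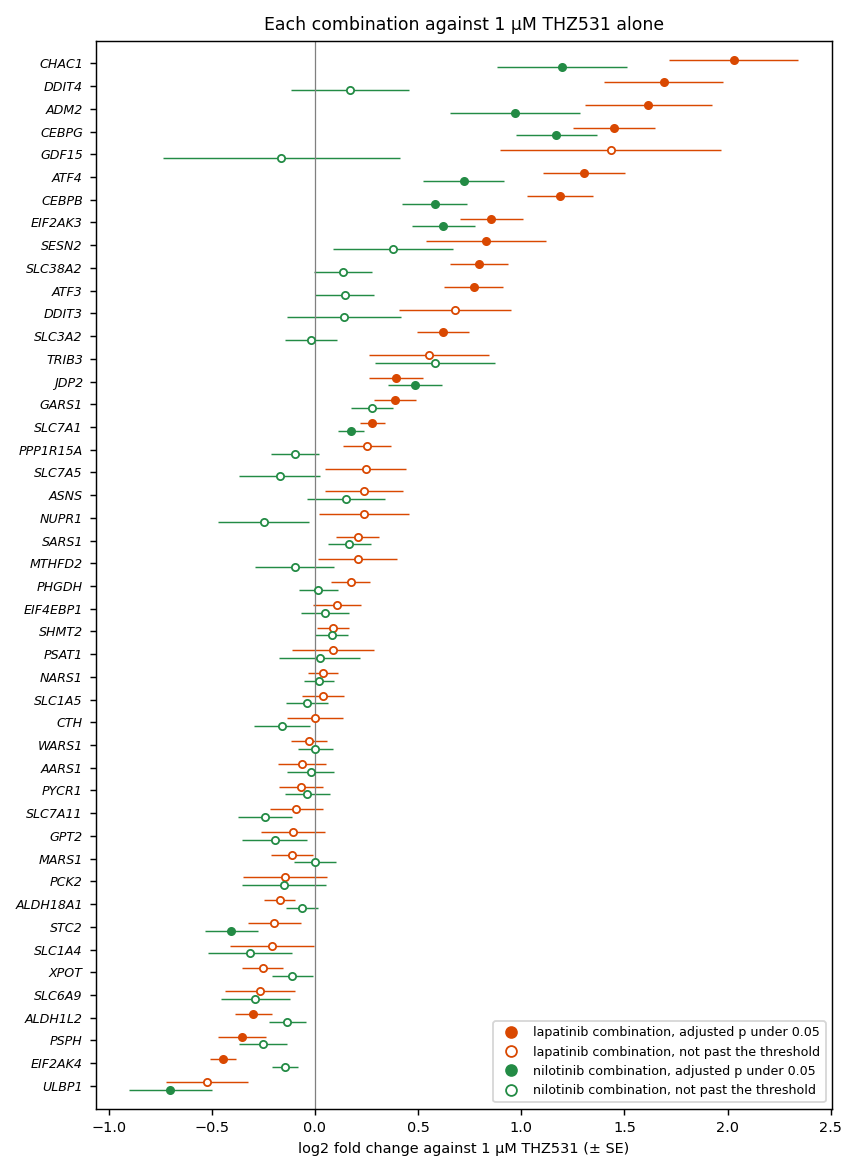
Log2 fold change (± SE) of 46 members in each combination against THZ531 at 1 µM; filled points passed the test. CHAC1 leads at 2.03 with lapatinib and 1.20 with nilotinib, and ATF4 stands at 1.30 and 0.72.

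Single libraries and the groups in the fit mattered in these 2 comparisons. In a fit of only the 2 groups compared the nilotinib counts were 5 higher (6.28% of all tested genes) and 1 lower (6.29%). Lost as higher were EIF2AK3 (0.66, adjusted p = 0.0865), CEBPB (0.61, adjusted p = 0.0801), ADM2 (1.00, adjusted p = 0.0526) and SLC7A1 (0.21, adjusted p = 0.0945) and as lower STC2 (-0.37, adjusted p = 0.1), while GARS1 was added (0.31, adjusted p = 0.0157). The lapatinib counts were then 15 (7.64%) and 2 (8.26%), with GDF15 (1.46, adjusted p = 0.0492) added and PSPH (-0.33, adjusted p = 0.0684) lost. Without replicate 2 of 1 µM THZ531 the nilotinib count fell from 8 to 4 higher, beside 7.53% of all tested genes in that fit, so the members' count lay near the background without that library. The calls lost were those of CEBPB (0.38, adjusted p = 0.0571), CHAC1 (0.96, adjusted p = 0.0525), ADM2 (0.96, adjusted p = 0.0833) and SLC7A1 (0.14, adjusted p = 0.18), and the count lower went from 2 to 1 (10.9% of all tested genes) with the loss of ULBP1 (-0.61, adjusted p = 0.0696). The call of SLC7A1 ended in 13 of the 21 fits with 1 library left out. Without replicate 2 of 1 µM THZ531 the lapatinib count was 12 higher (9.01%) and went from 3 to 1 lower (13.6%), PSPH (-0.30, adjusted p = 0.107) and ALDH1L2 (-0.28, adjusted p = 0.052) losing theirs. SESN2 lost its call with lapatinib without replicate 2 (0.71, adjusted p = 0.132) or 3 (0.80, adjusted p = 0.09) of the combination and without replicate 1 (0.91, adjusted p = 0.0539) or 2 (0.61, adjusted p = 0.182) of 1 µM THZ531. JDP2, also called higher there, lost its call without the same 4 libraries, at 0.34 to 0.42. PSPH lost its call without replicate 2 (-0.28, adjusted p = 0.13) or 3 (-0.34, adjusted p = 0.082) of the combination as well, and ALDH1L2 without replicate 2 (-0.27, adjusted p = 0.0655). Without replicate 1 of 1 µM THZ531 the nilotinib count was 1 lower, STC2 losing its call (-0.33, adjusted p = 0.11), and the call of ADM2 was lost (0.78, adjusted p = 0.125), as it was without replicate 2 (0.86, adjusted p = 0.111) or 3 (1.00, adjusted p = 0.0552) of the combination. STC2 lost its call also without replicate 1 of the combination (-0.28, adjusted p = 0.138). Leaving out replicate 1 of nilotinib, which enters the shared spread, gave 20 higher and 6 lower with lapatinib (12.6% and 15.8% of all tested genes in that fit) and 10 and 5 with nilotinib (11.1% and 12.7%). With lapatinib it added DDIT3 (0.68, adjusted p = 0.01), GDF15 (1.43, adjusted p = 0.006), TRIB3 (0.55, adjusted p = 0.0113), ASNS (0.24, adjusted p = 0.0485), SLC7A5 (0.25, adjusted p = 0.00942) and SARS1 (0.21, adjusted p = 0.0311) as higher. ULBP1 (-0.52, adjusted p = 0.0172), SLC6A9 (-0.27, adjusted p = 0.0299) and XPOT (-0.25, adjusted p = 0.0133) were added as lower. With nilotinib it added TRIB3 (0.58, adjusted p = 0.0092) and GARS1 (0.28, adjusted p = 0.000459) as higher. SLC1A4 (-0.31, adjusted p = 0.0234), SLC6A9 (-0.29, adjusted p = 0.0226) and the cystine carrier SLC7A11 (-0.24, adjusted p = 0.0212) were added as lower. Leaving out replicate 1 of the lapatinib combination gave 5 lower, with ALDH18A1 (-0.26, adjusted p = 0.0136) and XPOT (-0.33, adjusted p = 0.0244) added, and DDIT3 (0.82, adjusted p = 0.0402), PPP1R15A (0.38, adjusted p = 0.0155) and GDF15 (1.63, adjusted p = 0.0403) were then called higher.

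Against THZ531 at 0.1 µM, the nominal dose in both combinations, the question is what changes when the inhibitor is added. The study proposes that both inhibitors sensitize cells to THZ531 by blocking its export through the transporter ABCG2. The THZ531 level in the cells was not measured here, so its part in these differences cannot be told apart from other effects of the inhibitor. Here, too, neither group compared chose the members, but the libraries that did enter the shared spread. With lapatinib 22 of the 46 members were higher (35.0% of all tested genes) and 13 lower (36.1%), or 14 and 16 with library size alone and 5 and 24 with mitochondrial scaling, with a median of 0.34 against 0.03. With nilotinib 19 were higher (34.3%) and 14 lower (35.6%), or 11 and 17 and 1 and 26 with these scalings, with a median of 0.08 against 0.03. Of all tested genes 21.5% were then higher and 45.6% lower, and 4.92% and 56.9%, with lapatinib, and 20.6% and 44.3%, and 4.35% and 54.0%, with nilotinib. Fits of only the groups compared, which hold none of those libraries, gave 26 and 13 with lapatinib (35.5% and 37.8% of all tested genes) and 21 and 16 with nilotinib (35.1% and 37.3%). Among transcription factors 5 of 7 were higher and 2 lower with lapatinib (3 and 2 with mitochondrial scaling), and 4 higher and 2 lower with nilotinib (1 and 3). ATF4 rose by 1.34 ± 0.20 and 0.76 ± 0.20 (edgeR quasi-likelihood test, Benjamini-Hochberg adjusted p = 5.36e-06 and 0.00195), the second value 0.13, edgeR Benjamini-Hochberg adjusted p = 0.526 with mitochondrial scaling, and no library overlapped. ATF3 rose by 2.16 ± 0.15 and 1.54 ± 0.15 and DDIT4 by 2.48 ± 0.30 and 0.96 ± 0.29 (edgeR quasi-likelihood test, Benjamini-Hochberg adjusted p = 9.94e-11, 1.5e-08, 3.17e-07 and 0.00596), the DDIT4 rise with nilotinib not being called with mitochondrial scaling (0.34, edgeR Benjamini-Hochberg adjusted p = 0.205). CHAC1 rose by 1.19 ± 0.30 with lapatinib (edgeR quasi-likelihood test, Benjamini-Hochberg adjusted p = 0.00147), uncalled with mitochondrial scaling (0.50, edgeR Benjamini-Hochberg adjusted p = 0.0584), and GDF15 by 2.03 ± 0.55 (edgeR quasi-likelihood test, Benjamini-Hochberg adjusted p = 0.00267). GDF15 was near the floor, at 0.240, 0.201 and 0.345 CPM at 0.1 µM THZ531, and without replicate 2 of the lapatinib combination the value was 1.37 (edgeR Benjamini-Hochberg adjusted p = 0.0374), still called. DDIT3 fell here too, with -0.81 ± 0.26 and -1.35 ± 0.26, as did PPP1R15A with -0.96 ± 0.12 and -1.31 ± 0.12 and ULBP1 with -1.38 ± 0.19 and -1.56 ± 0.19. The call of SLC1A4 with lapatinib (-0.48 ± 0.20, edgeR quasi-likelihood test, Benjamini-Hochberg adjusted p = 0.0393) ended without any 1 of the 6 libraries compared, at -0.52 to -0.44. That of ASNS with nilotinib (0.54 ± 0.19, edgeR quasi-likelihood test, Benjamini-Hochberg adjusted p = 0.0156) ended without replicate 2 at 0.1 µM (0.51, adjusted p = 0.0502) and turned with mitochondrial scaling (-0.07, edgeR Benjamini-Hochberg adjusted p = 0.763).

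Leaving out replicate 1 of nilotinib gave 27 higher and 13 lower with lapatinib against 0.1 µM THZ531 (35.2% and 35.1% of all tested genes in that fit), and 21 and 16 with nilotinib (34.4% and 34.8%). Added with lapatinib were ADM2 (0.53, adjusted p = 0.0254), SLC7A5 (0.28, adjusted p = 0.00111), SESN2 (0.44, adjusted p = 0.0386), MTHFD2 (0.36, adjusted p = 0.00493) and SARS1 (0.23, adjusted p = 0.00626) as higher and the glutamine carrier SLC1A5 (-0.18, adjusted p = 0.0163) as lower, while ALDH18A1 (-0.17, adjusted p = 0.0612) lost its call. Added with nilotinib were CHAC1 (0.37, adjusted p = 0.0498) and SARS1 (0.19, adjusted p = 0.0209) as higher, and SLC3A2 (-0.24, adjusted p = 0.00261) and SLC7A11 (-0.22, adjusted p = 0.0143) as lower.

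The combinations were also set against each other. Against the nilotinib combination, the lapatinib combination held 4 members higher (0.730% of all tested genes) and 1 lower (0.736%), with a median of 0.11 against 0.01. The 4 were DDIT4, ATF3, SLC3A2 and SLC38A2, a carrier of small neutral amino acids that was picked after its values were seen. DDIT4 differed by 1.52 ± 0.29, SLC38A2 by 0.66 ± 0.14, SLC3A2 by 0.64 ± 0.13 and ATF3 by 0.63 ± 0.14 (edgeR quasi-likelihood test, Benjamini-Hochberg adjusted p = 0.0102, 0.0226, 0.0134 and 0.0308). In each of them all 3 libraries of the lapatinib combination lay above all 3 of the nilotinib combination. EIF2AK4 was lower by the same criterion (-0.30 ± 0.06, edgeR quasi-likelihood test, Benjamini-Hochberg adjusted p = 0.021). ATF4, at 0.58 ± 0.20, had separate libraries as well but was not called (edgeR quasi-likelihood test, Benjamini-Hochberg adjusted p = 0.167). The doses of the 2 inhibitors differ, 3.16 µM against 1 µM, so this is a comparison of these mixtures and not of the compounds.

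These calls depended on single libraries and on the groups in the fit. A fit of only the 2 combinations left 1 member higher, DDIT4, and none lower (0.0269% and 0.00671% of all tested genes). ATF3 (0.62, adjusted p = 0.114), SLC3A2 (0.64, adjusted p = 0.0516), SLC38A2 (0.66, adjusted p = 0.185) and EIF2AK4 (-0.30, adjusted p = 0.302) were not called in it. Without replicate 1 of nilotinib, which is in neither group but enters the shared spread, 9 members were higher (0.879% of all tested genes in that fit) and 1 lower (0.750%), with ATF4 (0.58, adjusted p = 0.000228), SLC7A5 (0.42, adjusted p = 0.00308), CHAC1 (0.83, adjusted p = 0.0114), CEBPB (0.61, adjusted p = 0.0284) and GDF15 (1.59, adjusted p = 0.0346) added. Leaving out replicate 2 or 3 of the lapatinib combination left 1 or 0 higher, and leaving out replicate 1, 2 or 3 of the nilotinib combination left 1, 0 or 2. In edgeR DDIT4 lost its call in 3 of the 21 fits with 1 library left out. Without replicate 1 of the nilotinib combination it stood at 1.45, adjusted p = 0.0578, and without replicate 2 at 1.49, adjusted p = 0.0504. Without replicate 3 of the lapatinib combination, where edgeR left 0 called, DDIT4 stood at 1.45, adjusted p = 0.0546. ATF3 was then at 0.64, adjusted p = 0.103, SLC3A2 at 0.60, adjusted p = 0.0761 and EIF2AK4 at -0.29, adjusted p = 0.0983. EIF2AK4 also lost its call without replicate 2 of the lapatinib combination (-0.28, adjusted p = 0.0914) or replicate 1 (-0.27, adjusted p = 0.0974) or 3 (-0.31, adjusted p = 0.0569) of the nilotinib combination. With mitochondrial scaling 1 member was higher and none lower (0.0624% and 0.0748% of all tested genes), and DDIT4 was the one that stayed.

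Beside its own inhibitor, each combination is described without a test, since those libraries chose the members. In 23 of the 46 members all libraries of the lapatinib combination lay below all lapatinib libraries (38.3% of all tested genes), in 10 above (34.8%), and 13 overlapped. For nilotinib the numbers were 20 below (37.9%), 7 above (34.9%) and 19 overlapping, and without replicate 1 of nilotinib 20 below (40.4%), 19 above (38.0%) and 7 overlapping. TRIB3 went from 53.5, 41.4 and 38.2 CPM in lapatinib to 13.2, 12.9 and 11.5 in its combination and SESN2 from 30.4, 28.1 and 25.6 to 11.9, 17.2 and 15.4. DDIT3, XPOT, SLC1A4, GPT2 and ULBP1, given above, lay above DMSO with lapatinib and below it with the combination, while ATF4 libraries of lapatinib and its combination overlapped.

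Genes of the wider pathway, from lists that were also drawn up with earlier results known, moved as follows. Beside their counts stand the shares of all tested genes given above, 34.3% higher and 37.8% lower in the lapatinib combination, 33.7% and 37.3% in the nilotinib combination and 33.1% and 36.8% at 1 µM THZ531. With mitochondrial scaling 58.4%, 55.9% and 52.5% of all tested genes were lower, and with library size alone 20.9%, 20.5% and 21% higher and 48.4%, 47.1% and 45.6% lower. Of 16 genes of the eIF2 machinery 2 rose and 7 fell in the lapatinib combination (16 fell with mitochondrial scaling), 4 rose and 5 fell in the nilotinib combination (14 fell), and 6 rose and 6 fell at 1 µM THZ531 (10 fell). QRICH1, a regulator of translation under stress, fell by 2.62, 2.32 and 2.08 on the log2 scale, and PPP1R15B, the constitutive partner of GADD34, by 1.68, 1.99 and 1.84. OMA1, the mitochondrial protease that starts the same response, was at -0.63 with THZ531 at 0.1 µM, the 1 call of that list at that dose. Of 14 other cytosolic tRNA synthetases 8 rose and 3 fell in each combination (10 and 5 fell with mitochondrial scaling) and 6 rose and 3 fell at 1 µM THZ531 (7 fell). Of the 9 tested other genes linked to ATF4 3 rose and 2 fell, 3 rose and 3 fell, and 3 rose and 4 fell (7 fell in each with mitochondrial scaling), while FGF21, SLC6A15 and SLC7A3 did not pass the filter. No rise in these 3 lists was called with mitochondrial scaling, and with library size alone none in the eIF2 list, where 12, 10 and 8 fell. With library size alone 2 rose and 4 fell, 3 rose and 3 fell, and 3 rose and 5 fell among the tRNA synthetases, and 2 rose and 5 fell, 2 rose and 4 fell, and 1 rose and 5 fell among the genes linked to ATF4. Rescaling of these lists and of the next was a check that was added after the data were seen.

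The ATF6 and XBP1 arms of the unfolded protein response, which respond to the same stress in the endoplasmic reticulum, gave 11 rises and 2 falls of 16 genes in the lapatinib combination (7 and 3 with library size alone, 2 and 5 with mitochondrial scaling). In the nilotinib combination there were 9 and 4 (7 and 5, and 6 falls alone) and at 1 µM THZ531 11 and 3 (6 and 4, and 5 falls alone). Of all tested genes 34.3% were higher and 37.8% lower in the lapatinib combination, with 33.7% and 37.3%, and 33.1% and 36.8%, in the others. Higher with mitochondrial scaling were 5.30%, 4.83% and 4.35% of all tested genes, and the other shares under the scalings are those given for the lists above. HSPA5, the chaperone BiP, stood at 855, 892 and 866 CPM in DMSO, 2078, 2684 and 2541 in the lapatinib combination, 1659.6, 1487 and 1518 in the nilotinib combination and 1387, 1259 and 1261 at 1 µM THZ531. The groups did not overlap, and the lapatinib combination was highest. Its log2 fold changes were 1.48 ± 0.19, 0.84 ± 0.19 and 0.58 ± 0.19 (edgeR quasi-likelihood test, Benjamini-Hochberg adjusted p = 6.89e-07, 0.000497 and 0.00916). XBP1 itself fell, with -0.87, -1.33 and -1.58, and HERPUD1, a gene of protein disposal, was at 0.40, -0.40 and -0.82, called in all 3. Against 1 µM THZ531 5 of the 16 were higher in the lapatinib combination (5 and 4 with the scalings, and 1 lower with either, beside 12.8% of all tested genes higher and 16.1% lower). In the nilotinib combination 1 was lower (3 and 1, beside 13.0%). HSPA5, XBP1, HERPUD1, QRICH1, PPP1R15B and OMA1 were picked after their values were seen.

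The members were well expressed and ordinary in gene span. Their median log2 CPM was 6.22, against 3.63 over all tested genes, and their median span 28584.5 bases, against 27777. Per kilobase of transcript the DMSO level was highest in GARS1 at 186 CPM and lowest in ADM2 at 0.221, with a median of 19.9, and ATF4 stood at 57.4. Split at the median span of all tested genes, the 22 shorter members had a median log2 fold change of -0.14 at 1 µM THZ531, where shorter genes in general had 0.14. The 24 longer members had 0.25, where longer genes had -0.15. In the lapatinib combination the same medians were 0.36 for shorter members and 0.23 for longer ones, and 0.17 and -0.18 over all tested genes. At 1 µM THZ531 11 of the 24 longer members rose and 5 fell, beside 27.5% and 41.2% of all longer genes, and 4 of the 22 shorter ones rose and 9 fell, beside 38.6% and 32.8% of all shorter genes. Counting bears on some members. Taken over all GENCODE transcripts, 19 members have exons over exons of another gene, 17 of them over a gene on the opposite strand. The annotation behind the deposited counts is not given, so the overlap in these counts may differ. By symbol, 12 have named pseudogenes, among them ATF4, ASNS and GARS1. Reads may be split between a gene and such copies, which was not measured.

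Several limits hold for all of these values. The labels describe separate samples and the study speaks of independent experiments, but whether the cultures were handled on separate days is not stated for these libraries. With 3 libraries a group, a member without a call is not shown to be unchanged. A call in one treatment and none in another is not shown to differ, except where the 2 were set against each other. Only 1 time point, 1 cell line and steady-state mRNA were measured, so neither ATF4 protein nor transcription itself is described.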

How the data were processed

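The deposited table held raw counts per gene, made by the authors with HISAT2 2.1.0 and featureCounts on GRCh38 from unstranded libraries, for 28395 genes in 21 libraries. Gene identifiers were matched to RefSeq symbols, which covered 27745 genes and 99.98% of counts. With R 4.3.3 and edgeR 4.0.16, filterByExpr kept 16036 genes. TMM factors and 1 quasi-likelihood model over all libraries, with 1 mean per group, gave log2 fold changes and Benjamini-Hochberg adjusted p over all kept genes. The standard errors (SE) are not an output of that test. They were worked out as the absolute log2 fold change divided by the square root of its F statistic. Alternatives used DESeq2 1.42.0, other scalings and filters, a replicate block, halved counts, only the compared groups, and each library left out. Named by rule were ATF4, DDIT3 and ATF3, the 3 members of each role with the largest change in the lapatinib combination against DMSO, and up to 6 members called in each combination against 1 µM THZ531. Other genes named were chosen after their values were seen. The members and lists were chosen with earlier results of these data known.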

Additional observations from a re-analysis of the deposited data

How the results depend on the processing

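The 46 members held 193 calls over the 9 comparisons. Of the 111 calls on members named by rule, a subset chosen mostly for large changes, 110 kept direction and call with DESeq2 size factors, 111 without a filter, 111 with at least 10 counts in every library, 110 with halved counts, 104 in fits of only the groups compared and 111 with the DESeq2 Wald test. Library size alone kept 97 and ended 14, and mitochondrial scaling kept 67, ended 29 and turned 15. Of all 193 calls DESeq2 size factors kept 188, no filter 191, the strict filter 192, the replicate block 192, halved counts 191, only the groups compared 180 and the DESeq2 Wald test 191. Library size alone kept 144 of the 193, ended 42 and turned 7, and mitochondrial scaling kept 98, ended 40 and turned 55. This wider count was added after the data were seen. The cause was not tested.

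With library size alone the members higher and lower became 13 and 16 for the lapatinib combination and 7 and 17 for nilotinib with THZ531, both against DMSO. It gave 6 higher for 1 µM THZ531 against DMSO, 14 and 11 higher for the lapatinib and nilotinib combinations against 0.1 µM THZ531, and 6 lower for the lapatinib combination against 1 µM THZ531. With mitochondrial scaling the counts, higher and lower, were 0 and 0 for 0.1 µM THZ531 in edgeR (1 and 1 with TMM), 5 and 24 with lapatinib in the mixture, 1 and 26 with nilotinib in it, and 1 and 25 at 1 µM THZ531. Against 0.1 µM THZ531 they were 5 and 24, and 1 and 26, against 1 µM THZ531 5 lower with lapatinib, and between the combinations 1 and 0. At least 10 counts in every library gave 5 lower for the lapatinib combination against 1 µM THZ531. Fits of only the groups compared gave 4 and 2 for 0.1 µM THZ531, 5 and 1 for the nilotinib combination against 1 µM THZ531 and 1 and 0 between the combinations. The DESeq2 Wald test gave 2 higher for 0.1 µM THZ531.

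Of the 55 calls turned by mitochondrial scaling over all members, the 15 on members named by rule are listed here. Against DMSO they were SLC7A5 (-0.23), SLC3A2 (-0.18) and NARS1 (-0.0300) for the lapatinib combination, ATF4 (-0.0204) and EIF2AK3 (-0.13) for the nilotinib combination, and ASNS (-0.0389) and GARS1 (-0.18) for 1 µM THZ531. Against 0.1 µM THZ531 they were CEBPB (-0.0283), ASNS (-0.0500), SLC3A2 (-0.30), GARS1 (-0.0249) and NARS1 (-0.0383) with lapatinib, and EIF2AK3 (-0.13), ASNS (-0.0734) and GARS1 (-0.0702) with nilotinib.

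A replicate block gave 2 higher for 0.1 µM THZ531 and 5 lower for the lapatinib combination against 1 µM THZ531. Of the 111 calls on members named by rule the replicate block ended 1, that of ULBP1 at 0.1 µM THZ531 (-0.63). Deviations of same-numbered libraries had a mean correlation of 0.0254, over 0.1 in 14 of 63 pairs. Between different numbers the mean was -0.0126, over 0.1 in 16 of 126 pairs. Of 21 libraries 11 correlated best with their own number. The numbers are not taken as pairs in the main fit, and the replicate block stands as the alternative. Replicate 1 did hold the highest median member in each group with a tyrosine kinase inhibitor.

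With 1 library left out in turn, 2260 of 2331 values of the named members kept their call, and 71 in 18 results lost it, while over all members 3892 of 4053 kept it and 161 in 44 calls lost it. The members higher and lower ranged from 0 to 2 and 0 to 1 for 0.1 µM THZ531, 20 to 24 and 9 to 11 where lapatinib was mixed in, 15 to 20 and 11 to 13 where nilotinib was, and 11 to 19 and 12 to 16 at 1 µM THZ531, all against DMSO. Against 0.1 µM THZ531 they ranged from 20 to 27 and 10 to 13 with lapatinib and 16 to 21 and 12 to 16 with nilotinib. Against 1 µM THZ531 they ranged from 12 to 20 and 1 to 6, and 4 to 10 and 1 to 5, and between the combinations from 0 to 9 and 0 to 1. Leaving out replicate 1 of nilotinib with replicate 2 of 1 µM THZ531, an alternative chosen after seeing the data, kept 110 calls and gave 2 higher for 0.1 µM THZ531 and 9 higher between the combinations. Rescaling the 4 lists of other genes, by library size alone and by mitochondrial scaling, was also chosen after seeing the data. In the lapatinib combination against DMSO, the 16 genes of the ATF6 and XBP1 arms gave 11 rises and 2 falls with TMM, 7 and 3 with library size alone and 2 and 5 with mitochondrial scaling in edgeR.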
